A study of Canis lupus familiaris with 22 samples.

Results

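Genes of the exocrine pancreas were followed in mammary tissue of the dog: CELA1, CPB1, PLA2G1B, CLPS, GP2 and REG3A. These 6 genes were chosen by their levels on the same arrays, higher in healthy mammary samples than in mammary tumours in an earlier look, so that difference is given below as a description, without a test. A probe counted as a member when the array design assigned it to a canine RefSeq transcript of one of the 6 genes, which gave 16 probes among the 43603 different probes of the array and 6 genes among the 1458 that could be named here. Every probe was kept. Their sequences are not printed here.

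The arrays compared spontaneous malignant and benign mammary tumours, removed from dogs referred for surgery, with tissue labelled as mammary gland of healthy dogs. The study lists carcinomas and a myoepithelioma as malignant numbers 1 to 5 and adenomas as benign numbers 1 to 3, matched here to the dogs by number alone. A fibrosarcoma (malignant number 6), a benign cystadenomyoepithelioma and 1 further healthy tissue of the study are not among the scanner files used here. Its methods state that healthy tissue was checked under the microscope for any disease. The labels give no treatment, genotype or strain, and the ages and breeds of the dogs are not used here. Labelled RNA of whole tissue was hybridised in 1 colour (Cy3) to Agilent canine arrays, and scanner files of 19 arrays covered 5 dogs with malignant tumours, 3 with benign tumours and 2 healthy dogs.

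In the pancreas, acinar cells make digestive enzymes, store them in zymogen granules and release them into the ducts that lead to the gut. CELA1 is a serine protease of the elastase family and CPB1 a carboxypeptidase that trims basic residues from the ends of peptides. PLA2G1B is a secreted phospholipase, CLPS (colipase) is the cofactor of pancreatic lipase, GP2 is the main glycoprotein of the zymogen granule membrane, and REG3A is a secreted C-type lectin. They are known mainly as products of the pancreas or the gut, although skin can also express CELA1, and not as typical products of mammary epithelium. Their signal in both samples labelled healthy goes against what mammary tissue is known to express, so healthy is used below as the label of these samples, and where their RNA came from was not tested.

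A level is the log2 of the background-subtracted spot signal minus the 75th percentile of that array, so that 0 is a bright spot by the standard of its array and a step of 1 is a doubling. Arrays a and b of the same numbered sample were averaged, and each number was treated as 1 dog. The labels speak of biological duplicates and the methods of duplicate arrays of a sample, so the spread between a and b may be technical. The share of probes well above background, as called by the scanner software, was 63.7 to 76.4% on malignant arrays, 71.5 to 83.2% on benign arrays and 62.2 to 71.4% on healthy arrays. No spot of any array was saturated. In whole tissue, fewer cells of a type and less RNA per cell cannot be told apart.

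Every one of the 16 probes was detected, that is called well above background, on all 4 healthy arrays, and in all 16 both healthy dogs lay above all 8 tumours. Of all probes with a level in every dog, 1.79% had that arrangement, and 0.552% had it with a gap at least as wide as the narrowest gap of a member. The mean of the healthy dogs lay above the mean of the tumours by a median of 11.27 over the 16 probes, from 4.14 for a CELA1 probe to 14.71 for a PLA2G1B probe, while the median over all probes tested was -0.06. With a lower bound in place of the difference for the 3 probes not well above background on any tumour array, the median was again 11.27. It could not change, since these probes lay above it with the difference and with the bound (11.71 to 12.75). A_11_P051081 of REG3A and A_11_P097016 and A_11_P214818 of GP2 kept differences of 11.32, 13.35 and 10.44. They were detected on only 1 or 2 of the 15 tumour arrays, so the median rests partly on unmeasured tumour levels. The 6 genes supplied 2.75% of the summed probe signal of healthy dog 1 and 0.924% of that of healthy dog 2, against 0.00151 to 0.0035% in the tumours. Nothing is read from these figures beyond the choice of the genes.

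**Figure D1:**
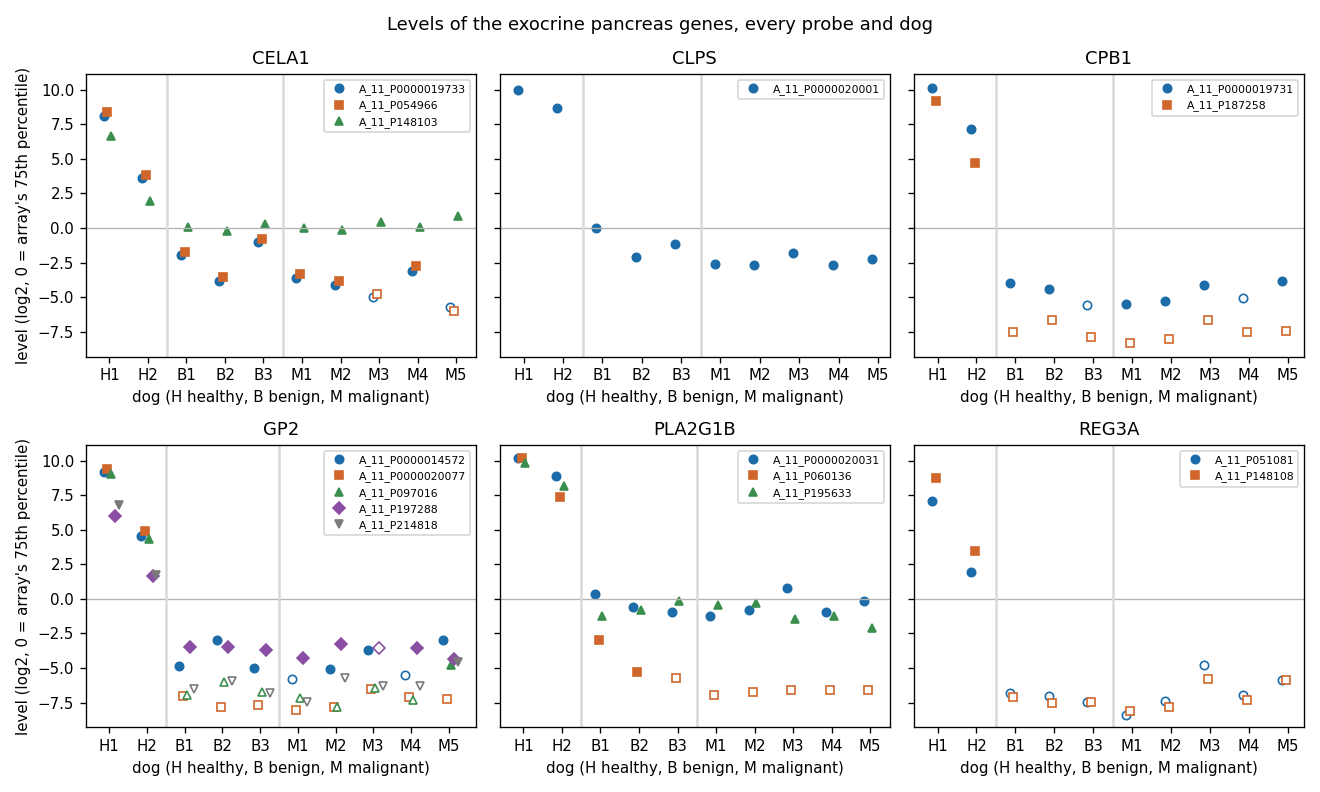
Level of each probe (vertical axis, log2, 0 is the 75th percentile of the array) in each dog (H1 and H2 healthy, B1 to B3 benign, M1 to M5 malignant), 1 panel per gene. Filled symbols were well above background on every array of the dog and open symbols were not. Both healthy dogs lie above all 8 tumours for all 16 probes, and healthy dog 1 lies above healthy dog 2 throughout.

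Of the proteases, CELA1 was detected by at least 1 probe on every array of every tumour, in malignant dogs 3 and 5 by A_11_P148103 alone. Its probe A_11_P054966 had levels of 8.37 and 3.84 in healthy dogs 1 and 2, of -1.76, -3.54 and -0.76 in benign dogs 1 to 3, and of -3.33, -3.81, -4.77, -2.77 and -6.03 in malignant dogs 1 to 5. Benign dogs 3 and 1 were the highest tumours, and in malignant dogs 3 and 5 the probe was not well above background on any array. A second probe, A_11_P0000019733, placed the 6 tumours with measured levels in the same order and was likewise not well above background in malignant dogs 3 and 5, and the healthy mean exceeded the tumour mean by 9.43 with it and by 9.45 with A_11_P054966.

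The third CELA1 probe behaved otherwise. A_11_P148103 had levels of 6.64 and 1.99 in the healthy dogs, of 0.08, -0.21 and 0.26 in the benign tumours, and of -0.01, -0.15, 0.46, 0.07 and 0.88 in the malignant tumours. It was well above background on all 15 tumour arrays and its levels in the tumours spanned only 1.09, with malignant dog 5, where the other probes were not well above background, at the top. Its gap between the lower healthy dog and the highest tumour, 1.11, was the narrowest of the 16 probes.

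CPB1 lay far below the healthy dogs in every tumour. Probe A_11_P0000019731 had levels of 10.11 and 7.18 in the healthy dogs, of -3.95, -4.40 and -5.53 in the benign tumours, and of -5.47, -5.28, -4.12, -5.07 and -3.84 in the malignant tumours. The benign and malignant ranges overlapped, and the probe was well above background on 5 of 6 benign and 8 of 9 malignant arrays. The other probe, A_11_P187258, had levels of 9.17 and 4.71 in the healthy dogs and was well above background on 0 of 15 tumour arrays. With the lowest signal called well above background on each tumour array put in place of the unmeasured values, its healthy mean was at least 5927-fold higher than the tumour mean.

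PLA2G1B, the phospholipase, was detected by 2 of its 3 probes on every tumour array. With A_11_P0000020031 the healthy dogs had levels of 10.18 and 8.85, the benign tumours 0.38, -0.58 and -0.93, and the malignant tumours -1.26, -0.79, 0.79, -0.92 and -0.17. The highest tumours were malignant dog 3 and benign dog 1. With A_11_P195633 the healthy dogs had levels of 9.84 and 8.18 and the tumours lay from -2.12 in malignant dog 5 to -0.19 in benign dog 3, so the order of the tumours differed between the probes.

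The third PLA2G1B probe differed from these. A_11_P060136 had levels of 10.17 and 7.39 in the healthy dogs, of -2.97, -5.27 and -5.76 in the benign tumours, and of -6.92, -6.74, -6.56, -6.58 and -6.61 in the malignant tumours. Benign dog 1 was the highest tumour, well above background on both its arrays, and benign dog 2 was well above background on both of its own. The probe was well above background on 5 of 6 benign arrays and on 1 of 9 malignant arrays, so the malignant levels are mostly those of unmeasured spots and whether the groups overlap cannot be read.

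CLPS, the lipase cofactor, had a single probe, well above background on all 15 tumour arrays. Its level was 9.95 and 8.67 in the healthy dogs, -0.03, -2.11 and -1.14 in benign dogs 1 to 3, and -2.59, -2.64, -1.83, -2.68 and -2.27 in malignant dogs 1 to 5. Benign dog 1 stood at the top of the tumours and benign dog 3 next, while benign dog 2 lay among the malignant tumours. The lower healthy dog exceeded benign dog 1 by 8.70.

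GP2, the granule membrane protein, had 5 probes with unequal detection in the tumours. Probe A_11_P0000014572 had levels of 9.18 and 4.58 in the healthy dogs, of -4.85, -2.98 and -4.99 in the benign tumours, and of -5.77, -5.05, -3.69, -5.48 and -2.97 in the malignant tumours. Malignant dog 5 and benign dog 2 were the highest tumours, and it was well above background on all 6 benign and 6 of 9 malignant arrays. A_11_P197288 was well above background on 14 of 15 tumour arrays, and its levels there ran from -4.36 to -3.27.

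The other GP2 probes were rarely detected in tumours. A_11_P097016 and A_11_P214818 were each well above background on 2 of 15 tumour arrays, 1 of benign dog 2 and the only array of malignant dog 5. A_11_P0000020077, with levels of 9.37 and 4.94 in the healthy dogs, was well above background on 0 of 15, and the healthy mean was at least 6891-fold higher than the tumour mean. With the 2 GP2 probes detected most often in tumours, A_11_P197288 and A_11_P0000014572, the healthy mean exceeded the tumour mean by 7.54 and 11.35.

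REG3A, the lectin, was the gene least detected in tumours. A_11_P051081 had levels of 7.07 and 1.91 in the healthy dogs, of -6.78, -6.99 and -7.43 in the benign tumours, and of -8.38, -7.42, -4.76, -6.95 and -5.88 in the malignant tumours. The highest value belonged to malignant dog 3, where 1 array was well above background, the only such array among 15. A_11_P148108 had levels of 8.74 and 3.49 in the healthy dogs and was well above background on 0 of 15 tumour arrays, with the healthy mean at least 3354-fold higher than the tumour mean.

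The healthy dogs themselves were far apart. Healthy dog 1 lay above healthy dog 2 in 16 of 16 probes, by a median of 4.48 (3.04 with quantile normalization), whereas the median over all probes tested was 0.01 and 22.7% of them were higher in healthy dog 1 by at least 1. The duplicate arrays of a healthy dog differed by at most 0.26 in any member probe, with a median of 0.06, so the difference between the dogs exceeded the spread between their arrays in every probe. With 1 dog on each side there is no test.

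The differences between the healthy dogs formed 2 sets. In 11 probes, among them all those of CELA1, GP2 and REG3A and A_11_P187258 of CPB1, healthy dog 1 exceeded healthy dog 2 by 4.30 to 5.26, which is 19.7 to 38.3-fold. In the other 5, the CLPS probe, the 3 PLA2G1B probes and A_11_P0000019731 of CPB1, the difference was 1.28 to 2.93, which is 2.43 to 7.63-fold. The 5 probes with the smaller differences were also those with the brightest spots in healthy dog 1, with processed signals of 404414 to 507289 against 27550 to 287944 for the other 11. Between the CPB1 probes the difference was 2.93 with the brighter spot and 4.46 with the dimmer. The part of spot brightness in these differences was not tested.

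**Figure D2:**
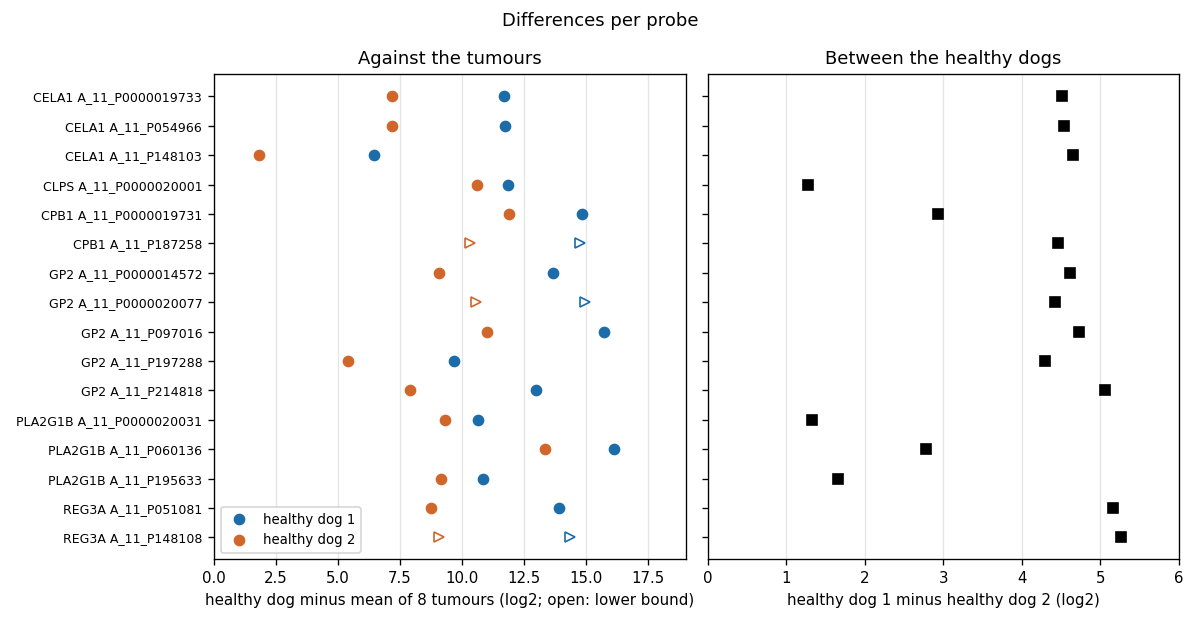
Left, each healthy dog's level minus the mean of the 8 tumours (horizontal axis, log2) for every probe. Right, healthy dog 1 minus healthy dog 2 (log2). Differences between the healthy dogs lie at 1.28 to 2.93 for CLPS, PLA2G1B and 1 CPB1 probe and at 4.30 to 5.26 for the other 11 probes. Open triangles at left are lower bounds for the 3 probes not well above background on any tumour array.

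Signal that remained in the tumours was probed by detection. Of the 16 probes, 13 were detected by 1 or more of the 15 tumour arrays, 4 by all 15 and 3 by none. Each tumour had 8 to 12 probes of the 16 detected by at least 1 array, covering 5 of the 6 genes, and all 6 only in malignant dog 3 through the single REG3A array. Benign dog 2 had the most such probes, 12, and malignant dogs 3 and 4 the fewest, 8. Over all probes, an array detected 63.7 to 76.4% in malignant and 71.5 to 83.2% in benign dogs. Benign dog 2 had 79.2 and 83.2% and malignant dog 3 had 63.7 and 67.3%. The counts are thus not read as a trait of the 6 genes. Malignant dog 5 had only 1 array, and CELA1 was detected in malignant dogs 3 and 5 by A_11_P148103 alone. The duplicate arrays of a tumour differed by a median of 0.31 in malignant and 0.18 in benign dogs over the member probes, and by as much as 2.78.

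No single tumour was high in all genes. Benign dog 3 was the highest tumour for CELA1 by 2 probes, benign dog 1 for CLPS and for PLA2G1B by 1 probe, and malignant dog 3 or 5 in 10 of the 16 probes. Malignant dogs 3 and 5 also had the lowest 75th percentile signals among tumours, 314.9 and 452.9 against 773.9 to 1528 in the other 6, and for spots near background a low percentile raises the level. Its part in their place at the top was not tested, and levels that are not well above background have no order.

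**Figure D3:**
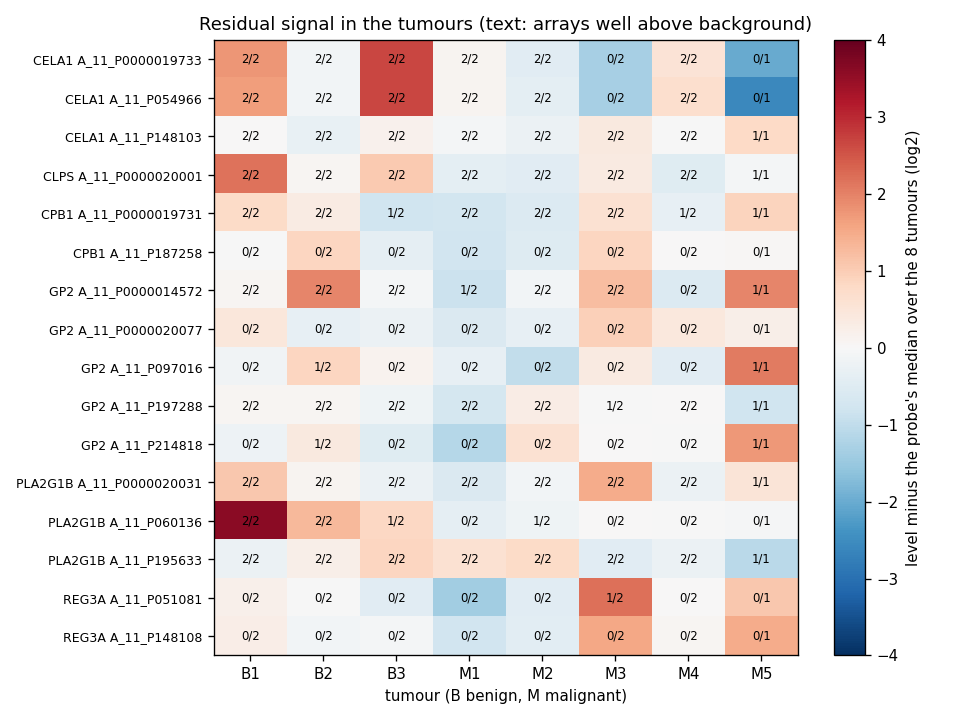
Residual signal in the 8 tumours. Colour shows the level minus the probe's own median over the tumours (log2, colour scale from -4 to 4), and the text in each cell gives the arrays well above background out of the arrays of that dog. CELA1 is highest in B3 and B1 by 2 probes, CLPS and 1 PLA2G1B probe in B1, and REG3A is well above background on a single array of M3.

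The malignant against benign comparison was not used to choose the genes and was tested with limma over all 35310 probes. Among the 16, 6 probes were detected on no more than 2 of the 15 tumour arrays and entered this fit through the healthy arrays alone. These were both REG3A probes, A_11_P187258 of CPB1 and 3 GP2 probes, and no difference between the tumour groups can be read from them. The other 10 were well above background on at least 4 tumour arrays.

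None of the 10 was called at an adjusted p of at most 0.05, and neither was any probe of the array (0%). At an unadjusted p of at most 0.05, 2 of the 10 passed, beside 637 of all probes tested (1.8%) and 636 of the 34796 that met the same condition on the tumour arrays (1.83%). The median difference over the 10, malignant minus benign, was -0.34, with a range of -2.12 to 0.20, beside 0.06 over all those probes. Several of the 10 are probes of the same gene in the same dogs, so they are not separate results.

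CLPS was the measured probe that passed without adjustment. It had a mean level of -1.09 ± 1.04 (SD, n = 3) in benign and -2.40 ± 0.36 (SD, n = 5) in malignant tumours, a difference of -1.31 (standard error 0.53, 95% interval -2.48 to -0.14, limma adjusted p = 0.9998). The other was A_11_P060136 of PLA2G1B, estimated at -2.02, but with 8 of 9 malignant arrays not well above background its malignant level is mostly unmeasured and the size is not read. The other PLA2G1B probes had differences of -0.09 and -0.36, with intervals on both sides of 0.

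For CELA1 the differences were -2.07 (95% interval -4.32 to 0.18) and -2.12 (95% interval -4.49 to 0.24) with the probes detected on 6 of the 9 malignant arrays, and 0.20 (95% interval -1.63 to 2.03) with A_11_P148103. The remaining measured probes, A_11_P0000019731 of CPB1 and A_11_P0000014572 and A_11_P197288 of GP2, had differences of -0.13, -0.32 and -0.24, and their intervals, from -2.58 to 1.95 at the widest, held 0. The fit pools the spread of all 3 groups, so the gap between the healthy dogs enters these intervals. With only tumour dogs the standard error was 0.39 instead of 0.83 for A_11_P148103 and 0.76 instead of 1.03 for A_11_P0000014572. For CLPS it was 0.51 instead of 0.53, and 0 member probes were called.

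**Figure D4:**
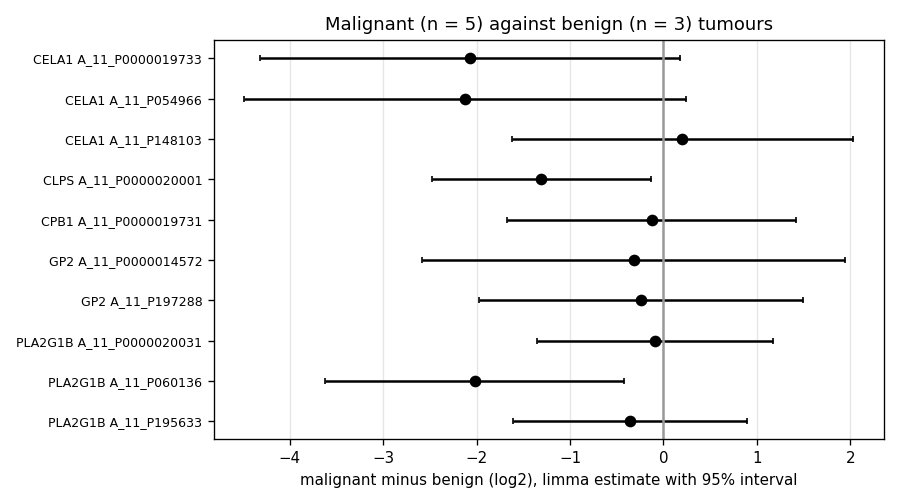
Malignant minus benign difference of each probe (horizontal axis, log2) as estimated by limma, with 95% intervals, for 5 malignant and 3 benign dogs, for the 10 probes well above background on at least 4 tumour arrays. The spread in the fit includes that of the healthy dogs. Intervals of CLPS and PLA2G1B A_11_P060136 lie below 0, the latter with 8 of 9 malignant arrays not well above background, and none of the 10 passed the adjusted threshold.

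Of 33 other genes of the exocrine pancreas listed, 2 could be named on the array, PNLIPRP1, a lipase-related secreted protein, and KLK1, tissue kallikrein, a serine protease also made in kidney and salivary gland. Each was judged by its probe with the highest mean level. Against the healthy dogs, 2 of the 2 were lower in malignant tumours and 1 of the 2 in benign tumours, where 0.416% and 0.377% of all probes were called lower. Both healthy dogs lay above all tumours for both genes. These tests and those of the lists below pool the spread of the 3 groups, so they do not measure the spread between the 2 healthy dogs alone.

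PNLIPRP1 by A_11_P174528 had levels of 8.08 and 3.70 in the healthy dogs, of -5.92, -3.79 and -5.94 in the benign tumours, and of -6.82 to -3.94, with a median of -5.44, in the malignant tumours. This probe was well above background on 3 of 6 benign and 4 of 9 malignant arrays, so its tumour levels are partly unmeasured. Its difference from the healthy dogs was -11.27 in malignant (standard error 1.11, limma adjusted p = 4.38e-04) and -11.11 in benign tumours (standard error 1.22, limma adjusted p = 0.00127). Both calls held with each of the 10 dogs left out in turn, with adjusted p of at most 0.005 and 0.00932, although a fit without a healthy dog assumes that the remaining one varies like the tumours. Healthy dog 1 exceeded healthy dog 2 by 4.37 with this probe, 4.43 with A_11_P145368 and 2.66 with A_11_P0000020030. The other PNLIPRP1 probes were well above background on 0 of 9 malignant arrays, where the healthy mean was at least 11975-fold and at least 2153-fold higher, and A_11_P0000020030 was well above background on 2 of 6 benign arrays, with benign dog 1 at -4.67 and the other benign dogs at -7.77 and -7.65.

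KLK1 by A_11_P0000019976 had levels of 9.60 and 5.30 in the healthy dogs, of -0.31, -1.34 and 0.23 in the benign tumours, and of -1.98 to 3.13, with a median of -0.62, in the malignant tumours. Outlier spots of this probe were left out on 2 arrays. Malignant dog 3 held the value of 3.13, closer to healthy dog 2 than to the median of the malignant tumours. The difference from the healthy dogs was -7.50 in malignant (standard error 1.33, limma adjusted p = 0.0429) and -7.92 in benign tumours (standard error 1.46, limma adjusted p = 0.0577). The malignant call was lost when any of 8 of the 10 dogs was left out, with adjusted p from 0.0697 to 0.876, and held without malignant dog 3 or healthy dog 2, the latter fit with the same assumption. The second KLK1 probe, A_11_P148163, was called lower in malignant (-9.39, limma adjusted p = 9.00e-04) and benign tumours (-7.97, limma adjusted p = 0.00781), with malignant dog 3 at -2.09.

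The tissue labels were set against marker lists, 1 probe per gene. Of 17 listed genes of mammary epithelium 8 could be named, 7 of them were well above background on all 4 healthy arrays, and the mean level of the list was -0.19 and 0.59 in healthy dogs 1 and 2, inside the range of -2.49 to 1.92 of the malignant tumours. In healthy dogs 1 and 2, KRT14, a keratin of basal and myoepithelial cells, had levels of 3.92 and 5.002 and CDH1, an epithelial adhesion protein, 2.69 and 3.22. ESR1, the oestrogen receptor, had levels of -6.52 and -3.41 and was detected on 2 of the 4 healthy arrays. None of the 8 was called in either comparison with the healthy dogs, with standard errors of up to 2.58. The 3 milk protein genes had a mean level of -4.39 in healthy dog 1 and 1.48 in healthy dog 2, with 2 and 3 of them well above background. The 3 adipose genes, at -1.54 and -0.36, lay within the range of the tumours. Healthy dog 1, with more signal of the pancreas genes, had the lower mean level of all 3 lists, although ERBB2, OXTR and MUC1 of the mammary list and LEP of the adipose list were higher in it, and the part of tissue make-up was not tested.

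Other pancreas lists were unequal. Of 16 islet genes 6 could be named, and INS, SST and IAPP, which encode insulin, somatostatin and amylin, were called lower in malignant tumours and INS and SST in benign tumours. SST was well above background on 0 benign arrays and 1 malignant array. It entered the fit through the healthy arrays, so its calls are not read as tests. IAPP was well above background on 4 benign arrays but only 2 of the 9 malignant arrays. Its malignant level is thus mostly unmeasured, and the size of its difference is not read. INS had levels of 9.36 and 4.64 in the healthy dogs and -4.33 to -2.92 in the tumours, a difference of -10.67 in malignant (limma adjusted p = 2.78e-04) and -10.72 in benign tumours (limma adjusted p = 7.08e-04). GCG, which encodes glucagon, had levels of 2.83 and -2.11 in the healthy dogs, above all malignant tumours, at -6.35 to -3.45. Healthy dog 2 lay below benign dog 2, at 2.19. The gene was not called, with a difference of -5.43 in malignant tumours (standard error 2.06, limma adjusted p = 0.791). None of the 6 named genes of pancreatic duct was called, and 2 of those, KRT19 and MUC1, are also on the mammary list. The mean level of the islet list was 4.11 and -0.63 in healthy dogs 1 and 2 and between -5.63 and -3.63 in the tumours.

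Of the other lists, 2 of the 7 named genes of stomach and intestine were called lower in both comparisons, TFF2, a secreted trefoil peptide, and CBLIF, which encodes gastric intrinsic factor, a protein that the dog makes mainly in its pancreas. CBLIF was well above background on 2 benign arrays and 1 malignant array. It passed the filter only with the healthy arrays, so its calls are not read as tests. None of the 6 liver genes and none of the 5 skeletal muscle genes tested was called. CYP2E1, MLN and MYH4 of these lists were too dim to be tested. MYH4, a myosin heavy chain, had levels of -1.17 and -6.26 in the healthy dogs, above all tumours, and was detected on 2 of the 4 healthy arrays and 0 of the 15 tumour arrays.

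**Figure D5:**
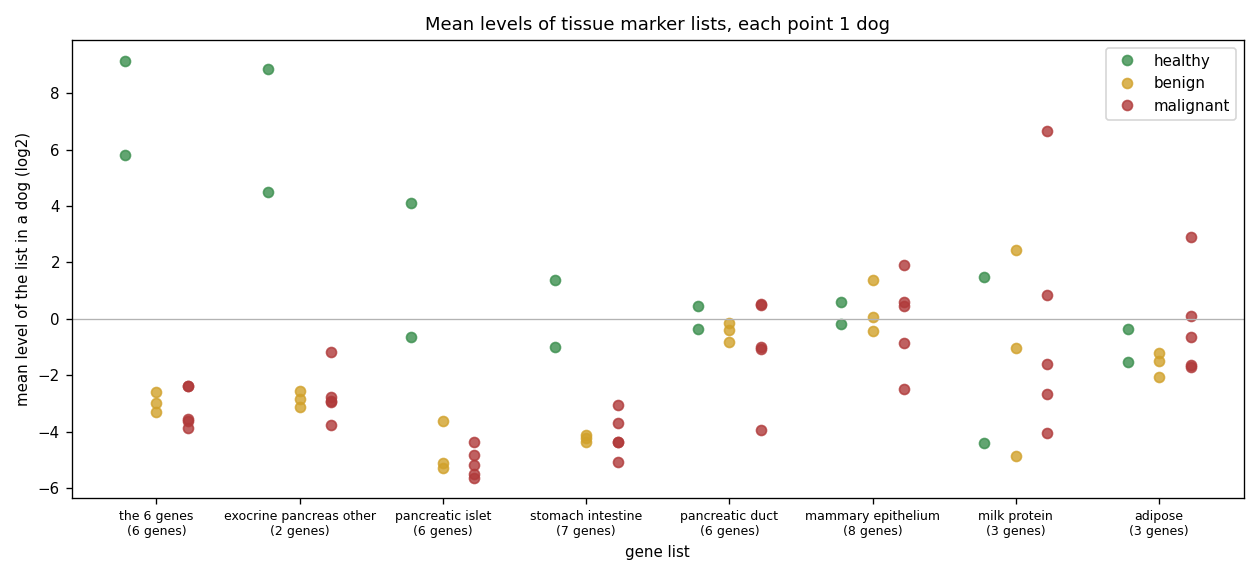
Mean level of each gene list (vertical axis, log2, 1 probe per gene) in each dog, each point 1 dog, healthy, benign and malignant from left to right within a list. Healthy dogs stand above the tumours in the lists of the 6 genes, of other exocrine genes, of islet genes and of stomach and intestine genes, and among them in the lists of duct, mammary epithelium, milk and adipose genes. The lists hold 2 to 8 genes.

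The genes whose pattern over the 10 dogs was most like the mean of the 6 genes were found by the root mean square difference of centred levels among 28940 genes or unnamed targets, in log2 units. The nearest named ones were SST (0.56), INS (0.59), PNLIPRP1 (0.83), TFF2 (0.87) and CBLIF (1.09), and the nearest unnamed targets were CO657895 (0.43) and ENSCAFT00000047327 (0.48). TFF2 had levels of 9.98 and 6.62 in the healthy dogs and -2.26 to 1.57 in the tumours, and CBLIF had 8.48 and 4.05 against -7.92 to -5.43. The tumour levels of SST and CBLIF are mostly those of spots not well above background, and those of PNLIPRP1 are so in part. All of these repeated the order of healthy dog 1, healthy dog 2 and tumours. The likeness is a description, since the 10 dogs share the arrays and the groups.

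The arrays lay on 6 slides of up to 4 arrays each, and 3 of these, slides 2, 4 and 5, held healthy arrays together with tumours. The median difference of healthy from tumour arrays over the 16 probes was 11.27, 14.50 and 9.69 within those slides, and the smallest difference of any probe was 4.28, 6.82 and 1.80. Slide 2 held arrays of both healthy dogs, slide 4 only healthy dog 1 and slide 5 only healthy dog 2. The values of slides 4 and 5 thus also carry the difference between the healthy dogs. Slides 2, 3, 5 and 6 held both tumour kinds. On these, the median malignant minus benign difference over the 10 probes well above background on at least 4 tumour arrays was -1.47, -0.67, -0.85 and -0.12. Those 10 include A_11_P060136 of PLA2G1B, mostly unmeasured in malignant tumours. For CLPS the difference was -2.58, -0.83, -1.79 and -0.03.

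In 3 tumours, 1 array shared a slide with a healthy array and the other did not. The array that shared the slide minus the array that did not had a median over the 16 probes of -0.40 in malignant dog 2, 0.08 in malignant dog 4 and 0.04 in benign dog 3, beside -0.005, 0.03 and -0.01 over all probes. The shared-slide array was higher in 1, 10 and 10 of the 16 probes. Both arrays of benign dog 1, the highest tumour for CLPS, shared slides with healthy arrays, so no such difference exists for it.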

How the data were processed

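Scanner files of 19 single-colour arrays were used. Per the submitters' processing notes, the authors extracted the images with Agilent Feature Extraction 11.5.1.1 and deposited spot intensities with background, outlier and saturation flags. The value table deposited for the series held the median spot intensity, equal in all 45220 spots of each array compared, with no centring or log scale. The number of columns per sample not used was 0.

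From the processed signal, control and outlier spots were left out, spots of a probe averaged, log2 taken and the 75th percentile of each array subtracted. Only targets with a canine RefSeq name could be matched to a symbol. In R 4.3.3, tables were read with data.table, version 1.17.8, and limma 3.58.1 fitted 3 groups of dogs to the 35310 probes well above background on at least 4 arrays, with Benjamini-Hochberg adjustment, and was tested on simulated data. The study's methods name a paired test, which needs pairs that different dogs do not give. The p-values rest on a spread pooled over the 3 groups of dogs and do not measure that between the 2 healthy dogs alone. Precision is limited by how few dogs there are. The array files held no mean signal, so normexp used the median signal and its local background.

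Text names follow a fixed rule: the 6 genes, exocrine genes that could be named, genes called in the tissue lists, the 5 named genes and 2 unnamed targets most like them. GCG, KRT14, CDH1, KRT19 and MUC1, ESR1, ERBB2, OXTR, LEP, CYP2E1, MLN and MYH4 were named after their values were seen. The members and lists were chosen with earlier results of these data known.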

Additional observations from a re-analysis of the deposited data

How the results depend on the processing

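The median healthy minus tumour difference over the 16 probes, 11.27, was 9.44 with normexp, 9.71 with the deposited value table and 9.72 with malignant arrays 5b, 6a and 6b added from it. With 1 dog left out in turn it ran from 9.23 (without healthy dog 1) to 13.31 (without healthy dog 2). The median difference between the healthy dogs, 4.48, was 4.19 with normexp, 3.04 with quantile normalization and 3.77 with 1 probe per gene. The probes well above background on at least 1 tumour array, 13, were 16 by the weaker flag of the scanner software and 12 when every array of a dog was required.

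The number of other exocrine genes called lower in malignant tumours, 2, was 1 with 1 probe per gene, 1 with probes well above background on every array (a filter that removed PNLIPRP1), 1 with the replicate block and 0 by an unpaired t-test, run in place of the methods' paired one, after Benjamini-Hochberg adjustment, and 1 to 2 with 1 dog left out. In benign tumours the number, 1, was 2 with normexp, quantile normalization, the value table with or without the added arrays, outlier spots kept, slide as a random block over arrays and the unpaired t-test unadjusted. It was 0 with the every-array filter, the replicate block and the adjusted t-test, and 1 to 2 with 1 dog left out. The slide block counts duplicate arrays as separate samples, which makes its p too small.

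No member probe that was tested was called between malignant and benign tumours under any of the 23 alternatives. One of these, chosen after seeing the data, required at least 4 tumour arrays well above background and left 10 probes, and the every-array filter left 4, with no probe of CPB1, GP2 or REG3A. With each gene taken by its brightest probe on average, the sign of the difference turned for CPB1 with normexp (0.42), the value table (0.26), the table with added arrays (0.34), and without malignant dog 1 (0.05), malignant dog 2 (0.0049) or benign dog 1 (0.21). It turned for GP2 with the first 3 (0.41, 0.22 and 0.28) and without benign dog 2 (0.33), and for PLA2G1B without malignant dog 1 (0.11), malignant dog 4 (0.02) or benign dog 1 (0.29). With 1 dog left out the lowest values were -0.58 for CPB1, -0.72 for GP2 and -0.41 for PLA2G1B. The cause was not tested. CLPS stayed negative, from -1.81 to -0.78. Over all probes the comparison gave 44 calls with the slide block and 2 without benign dog 3, instead of 0.

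The replicate numbers did not pair the dogs (correlation of deviations from -0.17 to 0.11). With the replicate block 89 probes were called in malignant against healthy instead of 147, 85 in benign against healthy instead of 134, and 0 between tumours. Without healthy dog 2 the counts were 950 and 993, and without healthy dog 1 they were 96 and 86, fits in which the lone healthy dog is assumed to vary like the tumours. The unpaired t-test called 1417 and 1717 unadjusted, and 32 and 0 after adjustment. Only 2 healthy dogs and dim tumour spots limit every value.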

Other observations

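Malignant dog 6 was analysed from the deposited value table alone, where levels are the log2 of the median spot signal, background included, minus the 75th percentile of the array. On that scale it lay inside the range of the other 8 tumours in 15 of the 16 probes and below it in 1, A_11_P195633 of PLA2G1B, at -1.72 against a lowest other tumour at -1.60. Its CLPS level was -1.75, beside a median of -1.69 over the other tumours, and its CELA1 level by A_11_P054966 was -2.47, beside a median of -2.71. All 16 probes lay below healthy dog 2, so this tumour added no sample with the level of the healthy dogs.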
